A study of Ovis aries with 6 samples.

Results

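The integrins and laminins of sheep longissimus muscle were taken from the deposited gene table by their symbols: every gene named ITGA or ITGB with a chain number or letter, and every gene named LAMA, LAMB or LAMC with a number. This gave 38 of the 23144 listed genes, made up of 17 integrin alpha chains, 8 integrin beta chains, 5 laminin alpha, 4 laminin beta and 3 laminin gamma chains, and ITGBL1. ITGBL1 encodes a secreted integrin beta-like protein that is no receptor chain, and it is described apart. One further integrin alpha chain in the table, ITGAD, has a symbol that the selection does not cover.

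The libraries came from the longissimus dorsi of adult females aged 1 year, 3 of the Qianhua Mutton Merino (QHMM) and 3 of the Small Tail Han (STH). QHMM is a recent breed for meat and wool and STH is a traditional local breed, and all animals were kept under the same conditions with no treatment, so breed was the only factor. Each library was made from poly(A) RNA of 1 animal and read on an Ion Proton instrument. The reads that fell on genes numbered 10982191 in the shallowest and 14334544 in the deepest library. Differences are given as STH vs. QHMM. Because 3 animals stand against 3, an exact permutation test of a single gene cannot give a p-value below 0.1, and the tests below draw on the spread of all genes.

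Integrins are receptors of the cell surface in which 1 alpha and 1 beta chain join, and the alpha chain largely sets which matrix protein is bound. Laminins are the main adhesive proteins of basement membranes, each built of an alpha, a beta and a gamma chain. Around the muscle fibre, laminin with the alpha chain LAMA2 is held by the integrin of ITGA7 and ITGB1 and by dystroglycan, and loss of LAMA2 or ITGA7 is known to cause muscular dystrophy. Laminin with the alpha chain LAMA4 is best known from the basement membrane of blood vessels, fat cells and nerve endings.

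The tissue label was borne out by its markers. Of 8 skeletal muscle markers, ACTA1, CKM, TTN, DES and TNNC2 had between 80760 and 1488000 normalized counts in each library, and 0 of these 5 were called by the edgeR test described below (0 with an unadjusted p-value below 0.05), while TNNT3 was listed at 0 throughout and 2 were not in the table. A normalized count is the read count divided by the library's effective size and scaled to the median library. On the second principal component of all genes, with 19.1% of the variance, the remaining 4 libraries were separated from QHMM replicate 2 and STH replicate 3. Counts of called genes are therefore also given without this pair.

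**Figure D1:**
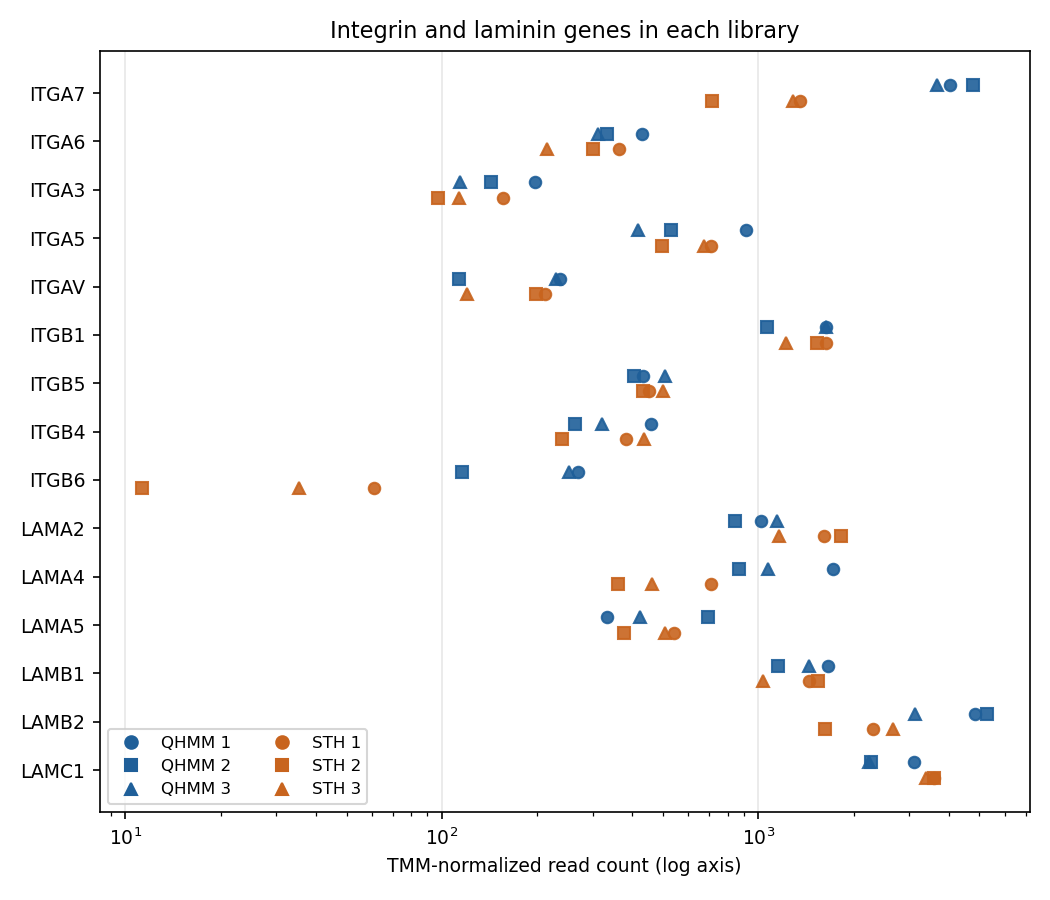
TMM-normalized read counts (log axis) of 15 integrin and laminin genes in each of the 6 libraries, with QHMM in blue and STH in orange and the symbol marking the replicate. ITGA7, ITGB6, LAMA4 and LAMB2 lie lower in all STH libraries, LAMA2 and LAMC1 lie higher, and ITGB1, ITGB5 and LAMB1 overlap.

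The muscle expressed a narrow set of these chains. In RPKM, the read count scaled by the total of its library and the length of the gene, which allows genes of different length to be compared, 24 of the 38 genes had a mean level of at least 1 over the 6 libraries. ITGA7 led with a mean of 53.2 RPKM (16.3 to 84.6), followed by its partner chain ITGB1 with 50.0 RPKM (30.4 to 65.6) and by LAMB2 with 46.8 RPKM (25.8 to 70.7). LAMC1 followed with 31.7 RPKM (19.8 to 44.2) and LAMB1 with 20.2 RPKM (12.6 to 24.8). The ranges of ITGA7, ITGB1 and LAMB2 over the 6 libraries overlapped widely, but they pool the breeds. ITGA7 had 78.2 to 84.6 RPKM in QHMM, above ITGB1 and LAMB2 in every library. In STH it had 16.3 to 33.6 RPKM, below both in every library. The means over 6 libraries thus do not give the order within a breed.

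A middle group lay far below. ITGA5, the fibronectin receptor chain, and ITGB5 each had a mean of 12.7 RPKM. The laminin alpha chains LAMA4 and LAMA2 had means of 11.2 and 11.1 RPKM, ITGB2 had 7.48, ITGB4 5.54, ITGA6 5.12, ITGAV 4.89, ITGB6 4.23 and LAMA5 3.72 RPKM. At the other end, 6 genes were too low to be tested, among them ITGA2, ITGB8, LAMA1, LAMB4 and LAMC3, each with at most 11 reads in any library. LAMA1 had 0 reads in 3 libraries and at most 5, and LAMB4 had 0 reads in 4 libraries and at most 5. The other 32 genes passed the filter on low counts and were tested together with all 12506 genes that passed.

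A gene was called when edgeR's quasi-likelihood F test gave an FDR below 0.05 (Benjamini-Hochberg adjustment over all tested genes) and the fold change was above 1.5. Of the 32 tested members, 2 were called, ITGA7 and ITGB6, and both were down-regulated in STH. Among all tested genes 3.45% were called (1.83% lower and 1.62% higher in STH), so 2 of 32 members is a small count near this background. Without QHMM replicate 2 and STH replicate 3, edgeR called 0 members (8 with an unadjusted p-value below 0.05) and 11 genes in all. With 1 library left out, 1 member was called when this was QHMM replicate 1, QHMM replicate 3 or STH replicate 3, and 4 when it was STH replicate 1. Before adjustment, 11 members had a p-value below 0.05 in edgeR, 10 of them lower and 1 higher in STH, against 19.2% of all tested genes (9.72% lower and 9.43% higher).

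The breeds did not overlap in 10 of the 32 tested members, against 24.7% of all tested genes. The 8 that lay lower in STH were ITGA7, ITGA9, ITGAE, ITGB6, LAMA3, LAMA4, LAMB2 and LAMB3 (11.7% of all tested genes), and the 2 that lay higher were LAMA2 and LAMC1 (13.0% of all tested genes). The log2 fold change was below 0 in 22 of the 32 members, against 48.2% of all tested genes. The median over members was -0.30, while the median over all tested genes was 0.02. Without the TMM correction, on log2(RPKM + 1), 12 of the 25 members kept by the filter at that scale were below 0. Their median was 0.0165, beside a median of 0.117 over all genes. With RPKM divided by the TMM factor on that scale, 13 of the 23 members kept were below 0. Their median was then -0.08, beside 0.0233 over all genes. The lean below 0 thus also depended on the scale and its filter, not on the TMM correction alone.

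**Figure D2:**
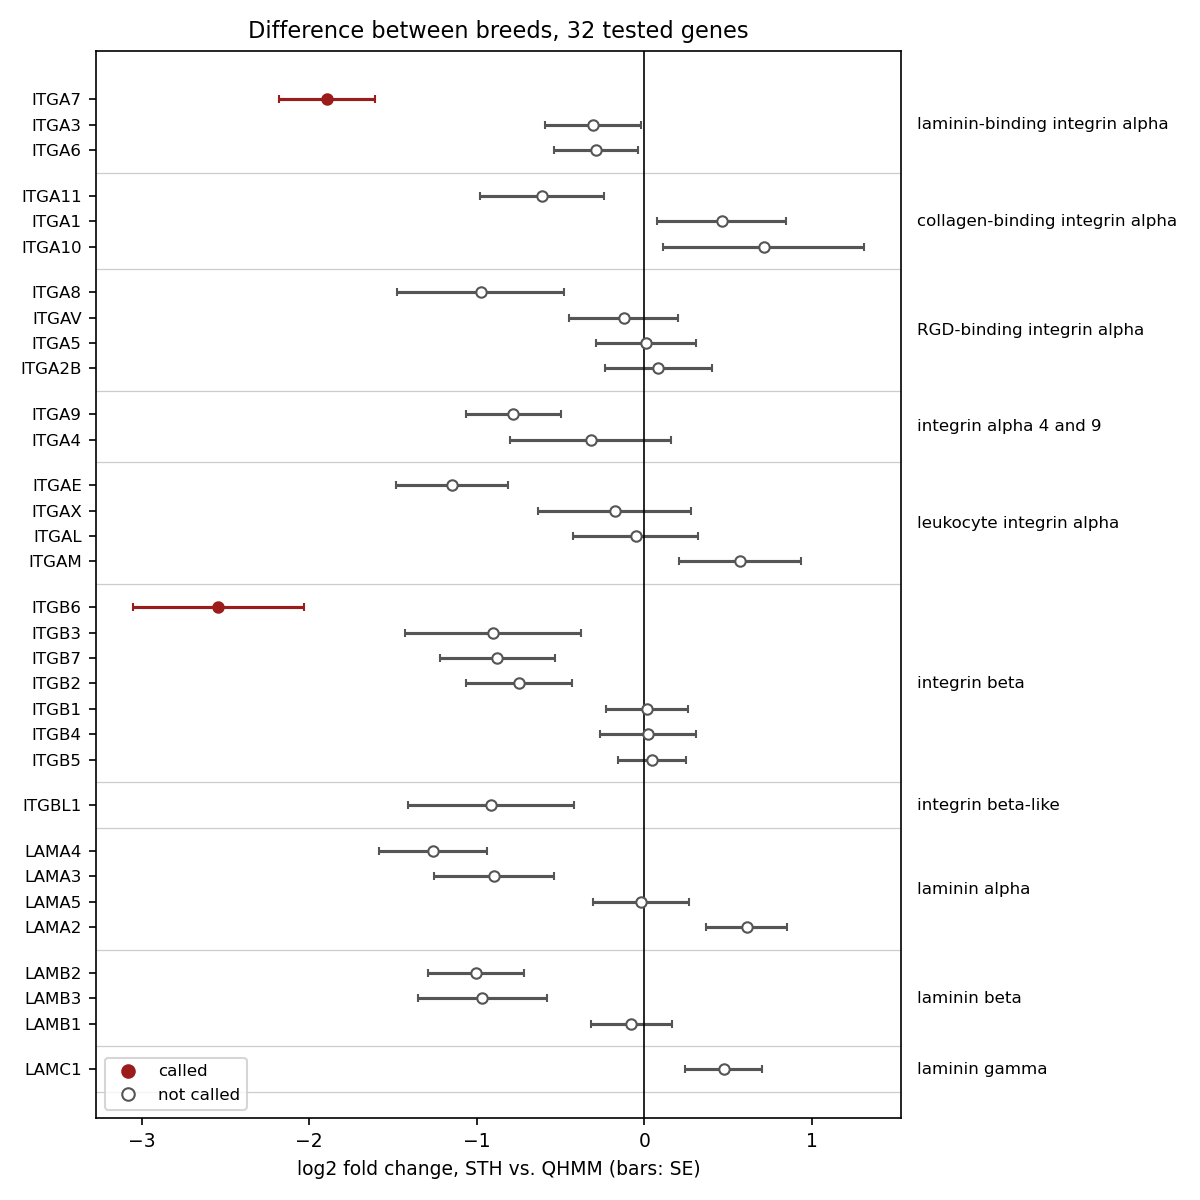
The log2 fold change of each of the 32 tested genes in STH vs. QHMM with its standard error (bars), grouped by chain. ITGA7 and ITGB6 (filled points, -1.89 and -2.54) passed the call, and open points did not.

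ITGA7, the laminin-binding alpha chain of the muscle fibre, had normalized counts of 4040, 4759 and 3666 in QHMM and of 1354, 714.2 and 1289 in STH, here and below in the order of replicates 1, 2 and 3. The lowest QHMM library stood well above the highest STH library, and STH replicate 2 was lowest of all. The mean was 4155 ± 555.4 (SD, n = 3) in QHMM and 1119 ± 352.1 (SD, n = 3) in STH. ITGA7 was down-regulated in STH by 1.89 on the log2 scale, a 3.71-fold difference (95% interval of the log2 fold change -2.53 to -1.26, SE 0.287, edgeR FDR 0.0109). The call held in each of the 6 fits that left out 1 library, with log2 fold changes from -2.07 to -1.67. Without both QHMM replicate 2 and STH replicate 3 the log2 fold change was -1.91 and the FDR 0.0942.

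Reads of a neighbour could enter the count of ITGA7. In the RefSeq annotation of a later sheep assembly, ITGA7 overlaps the methyltransferase gene METTL7B (current symbol TMT1B), which lies on the opposite strand. The sources used here do not state whether strand was used in counting. METTL7B, chosen for this overlap, had 781, 444 and 709 reads in QHMM and 83, 5 and 49 in STH, a log2 fold change of -3.89 (SE 0.577, edgeR FDR 0.0108). ITGA7 itself had 4711, 4233 and 3760 reads in QHMM and 1708, 696 and 1198 in STH, so the neighbour was several times lower in every library. With all METTL7B reads subtracted from ITGA7, the log2 fold change of ITGA7 was -1.71 and the call was kept (edgeR FDR 0.0138). In that annotation ITGB1, ITGA1, ITGA4, ITGA9, ITGBL1 and LAMB3 also overlap another gene, so reads may have been shared there too. The part of such reads in those counts was not tested. LAMB2 was not found there by its symbol, so its overlaps are not known here.

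The other laminin-binding alpha chains were not called. ITGA6, which pairs with ITGB1 or ITGB4, had 430.5, 332.8 and 311.1 normalized counts in QHMM and 363.0, 300.7 and 215.2 in STH. ITGA3 had 196.4, 142.8 and 114.1 in QHMM and 156.2, 97.49 and 113.0 in STH. The breeds overlapped in both genes, with log2 fold changes of -0.29 for ITGA6 (95% interval -0.84 to 0.26, edgeR FDR 0.577) and -0.30 for ITGA3 (95% interval -0.94 to 0.33, edgeR FDR 0.613). Both intervals lay above that of ITGA7, whose upper end was -1.26, although the difference between these genes was not itself tested.

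Slow muscle fibre genes were lower in the same STH libraries. Of 8 listed slow fibre markers 7 were in the table and tested, and all 7 had a log2 fold change below 0, against 48.2% of all tested genes. Called lower were 3, against 1.83% of all tested genes: the slow myosin heavy chains OMYHCS and MYH7B and the slow troponin T gene TNNT1. The summed normalized count of the list was 320100 to 357200 in QHMM and 131000 to 146300 in STH. Their part in the ITGA7 difference was not tested. In bulk tissue, fewer cells or fibres of a type and less RNA per cell cannot be told apart.

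ITGB6 encodes the beta chain that pairs with ITGAV and is best known from epithelial cells, where that receptor activates latent TGF-beta. It had 269.3, 115.8 and 252.6 normalized counts in QHMM and 61.04, 11.29 and 35.51 in STH. The breeds did not overlap, and replicate 2 was lowest in both. The mean was 212.5 ± 84.19 (SD, n = 3) in QHMM and 35.94 ± 24.88 (SD, n = 3) in STH. ITGB6 was down-regulated in STH by 2.54 on the log2 scale, a 5.82-fold difference (95% interval -3.67 to -1.41, SE 0.510, edgeR FDR 0.0266).

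The STH libraries held 77, 11 and 33 reads of ITGB6, and the QHMM libraries 314, 103 and 259. The call was lost when QHMM replicate 1 (FDR 0.0806), QHMM replicate 3 (FDR 0.0777) or STH replicate 3 (FDR 0.0655) was left out, and without both QHMM replicate 2 and STH replicate 3 (FDR 0.118), while the log2 fold change stayed between -3.20 and -2.15 in the 6 fits that left out 1 library. Epithelial markers were few. KRT5, KRT14 and EPCAM had at most 2.05 normalized counts in any library. The summed level of the 6 listed markers was 181.4 to 352.4 in QHMM and 160.1 to 237.8 in STH. Of the 3 markers tested 1 was called, the cadherin gene CDH1, which fell by 2.12 on the log2 scale (edgeR FDR 0.0438). KRT8 had a log2 fold change of -0.09 (edgeR FDR 0.914). KRT18 had one of 0.34, with all STH libraries above all QHMM libraries (edgeR FDR 0.715). Their part in the ITGB6 difference was not tested.

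ITGB1, the beta chain shared by most of the alpha chains of this tissue, did not differ detectably. It had 1640, 1065 and 1636 normalized counts in QHMM and 1635, 1530 and 1228 in STH. QHMM replicate 2 was lowest, and the breeds overlapped. The log2 fold change was 0.0167 (95% interval -0.52 to 0.56, edgeR FDR 0.979). The interval covers changes of up to about 1.5-fold in either direction, so a smaller difference could not be seen at this number of animals. ITGB5 (0.0452, 95% interval -0.40 to 0.49, edgeR FDR 0.933) and ITGB4 (0.0210, 95% interval -0.61 to 0.65, edgeR FDR 0.977) also overlapped.

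The make-up of the integrin alpha chains differed between the breeds, which is seen without any normalization between libraries when each chain is given as a share of the summed RPKM of its kind. ITGA7 made up 61.1%, 74.6% and 69.5% of the alpha chain RPKM in QHMM and 39.8%, 31.0% and 44.0% in STH. The lowest QHMM share was above the highest STH share. The summed alpha chain level was 138, 113 and 112 RPKM in QHMM and 84.3, 52.7 and 51.7 RPKM in STH. ITGA5 made up 13.6%, 8.10% and 7.74% in QHMM and 20.3%, 21.1% and 22.5% in STH, although its own normalized count did not differ detectably (log2 fold change 0.00934, 95% interval -0.65 to 0.66, edgeR FDR 0.990). A share of a sum moves when another chain moves, so the ITGA5 shares are no separate difference.

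Among beta chains, ITGB1 made up 55.6%, 50.4% and 60.0% of the summed RPKM in QHMM and 64.7%, 67.5% and 59.7% in STH. These shares overlapped. ITGB6 made up 9.25%, 5.56% and 9.39% in QHMM and 2.45%, 0.505% and 1.75% in STH, and these did not.

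**Figure D3:**
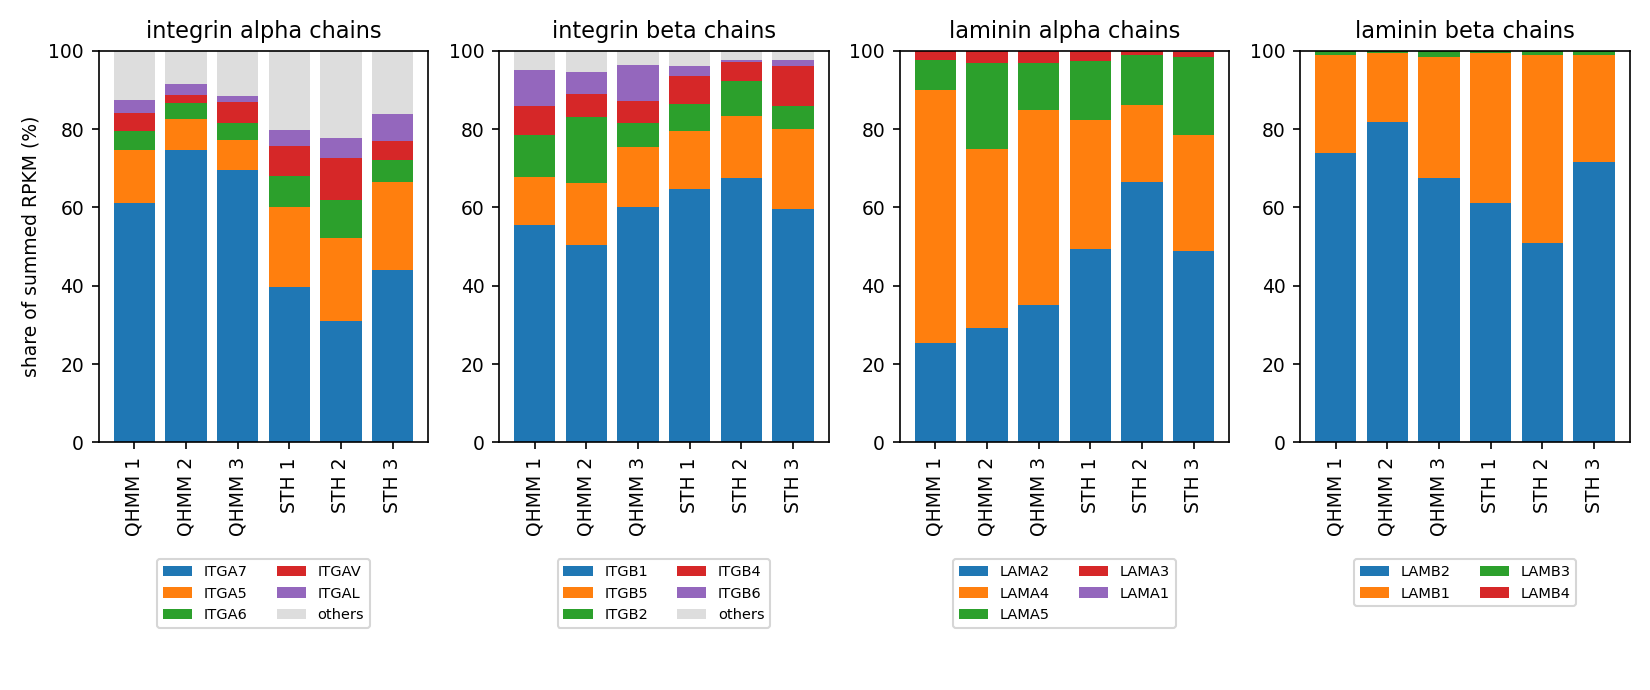
The share (%) of each chain in the summed RPKM of the integrin alpha, integrin beta, laminin alpha and laminin beta chains in each library. The ITGA7 share is 61.1% to 74.6% in QHMM and 31.0% to 44.0% in STH, and LAMA4 is the largest laminin alpha chain in all QHMM libraries while LAMA2 is the largest in all STH libraries.

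The laminin chains gave 0 calls of 8 tested, against 3.45% of all tested genes, with a smallest edgeR FDR of 0.0599. Of the 8, 5 had an unadjusted p-value below 0.05 in edgeR, against 19.2% of all tested genes. LAMA4, the alpha chain of vessel and fat cell laminin, had 1721, 870.2 and 1074 normalized counts in QHMM and 709.5, 359.2 and 460.5 in STH. Replicate 1 was highest in both breeds, and the breeds did not overlap. LAMA4 had a log2 fold change of -1.26 (95% interval -1.97 to -0.55, SE 0.321, edgeR FDR 0.0599). LAMA4 was called with DESeq2 (FDR 0.00342, where 7.78% of all tested genes were called), without a filter on low counts (FDR 0.0151, where 4.56% were called), with at least 10 counts required in every library (FDR 0.0485), with the replicate number as a block (FDR 0.0183) and without STH replicate 1 (FDR 0.0286).

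Of the listed fat cell genes, 4 of 5 were lower in the same STH libraries, and endothelial genes were not. All 5 adipocyte markers were tested and 4 were called lower, ADIPOQ, PLIN1, LEP and CIDEC, against 1.83% of all tested genes. The remaining marker, FABP4, overlapped between the breeds (log2 fold change -0.04, edgeR FDR 0.98). The summed level was 1432 to 4790 normalized counts in QHMM and 642.3 to 992.4 in STH. QHMM replicate 1 had the highest adipocyte sum and the highest LAMA4 count. It also had the highest sums of the smooth muscle and pericyte (9165), leukocyte (1943) and Schwann cell (737.4) lists. The sums of those lists overlapped between the breeds, and the adipocyte sums did not. The highest fibroblast sum was in QHMM replicate 3 and the highest endothelial sum in STH replicate 1. Of 10 endothelial markers 6 were tested and 0 were called (edgeR, 1 with an unadjusted p-value below 0.05), with sums of 8403 to 9039 in QHMM and 8959 to 10510 in STH. Of 8 fibroblast markers 6 were tested and 0 were called (edgeR, 2 with an unadjusted p-value below 0.05), with sums of 12980 to 20210 in QHMM and 6559 to 14190 in STH. The part of the adipocyte and fibroblast genes in the LAMA4 difference was not tested.

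LAMA2, the alpha chain of the laminin around the muscle fibre, went the other way. It had 1021, 842.1 and 1149 normalized counts in QHMM and 1615, 1831 and 1159 in STH. The breeds did not overlap, but only just, since STH replicate 3 was close to QHMM replicate 3. Its log2 fold change was 0.61 (95% interval 0.08 to 1.15, SE 0.242) and did not pass the test (edgeR FDR 0.197). LAMA5, the alpha chain of many epithelial and vessel laminins, had 331.9 to 693.7 in QHMM and 376.6 to 541.4 in STH and overlapped (log2 fold change -0.0188, edgeR FDR 0.980).

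The leading laminin alpha chain was thus not the same in both breeds. LAMA4 made up 64.7%, 45.7% and 49.8% of the laminin alpha chain RPKM in QHMM and 32.9%, 19.7% and 29.5% in STH. LAMA2 made up 25.4%, 29.2% and 35.2% in QHMM and 49.4%, 66.5% and 49.0% in STH. Within a library, the ratio of LAMA4 to LAMA2 was 2.55, 1.56 and 1.41 in QHMM and 0.665, 0.297 and 0.601 in STH. The ratio was above 1 in all 3 QHMM libraries and below 1 in all 3 STH libraries. This pair was chosen after the values were seen, so it is given without a test.

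LAMB2, the beta chain that marks the neuromuscular junction and vessel walls, was the most abundant laminin chain in RPKM over the 6 libraries. It had 4843, 5300 and 3117 normalized counts in QHMM and 2308, 1620 and 2674 in STH. QHMM replicate 3 lay close to STH replicate 3, and the breeds did not overlap. LAMB2 had a log2 fold change of -1.01 (95% interval -1.64 to -0.37, SE 0.286, edgeR FDR 0.0827), and was called with DESeq2 (FDR 0.0105) and without a filter on low counts (FDR 0.0462). LAMB1, the other main beta chain, had 1657, 1153 and 1446 in QHMM and 1449, 1550 and 1034 in STH, and overlapped (log2 fold change -0.0780, 95% interval -0.61 to 0.46, edgeR FDR 0.899).

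LAMC1, the gamma chain of nearly all laminins here, made up 98.7% to 99.7% of the laminin gamma chain RPKM in the 6 libraries. It had 3107, 2268 and 2238 normalized counts in QHMM and 3599, 3599 and 3377 in STH. The STH libraries lay above the highest QHMM library, QHMM replicate 1, and the log2 fold change was 0.47 (95% interval -0.03 to 0.98, SE 0.230, edgeR FDR 0.293). Set against this common chain, LAMB2 was 2.19, 3.28 and 1.96 times LAMC1 in RPKM in QHMM and 0.901, 0.633 and 1.11 times in STH. The same ratio for LAMA4 was 0.693, 0.480 and 0.600 in QHMM and 0.247, 0.125 and 0.171 in STH, while that for LAMA2 overlapped. A ratio to LAMC1 also moves when LAMC1 moves. Even for LAMB1, which overlapped in its own counts, it was 0.743, 0.708 and 0.900 in QHMM and 0.561, 0.600 and 0.426 in STH. The ratio of LAMB2 to LAMB1 overlapped, with 2.95, 4.64 and 2.18 in QHMM and 1.61, 1.06 and 2.61 in STH.

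**Figure D4:**
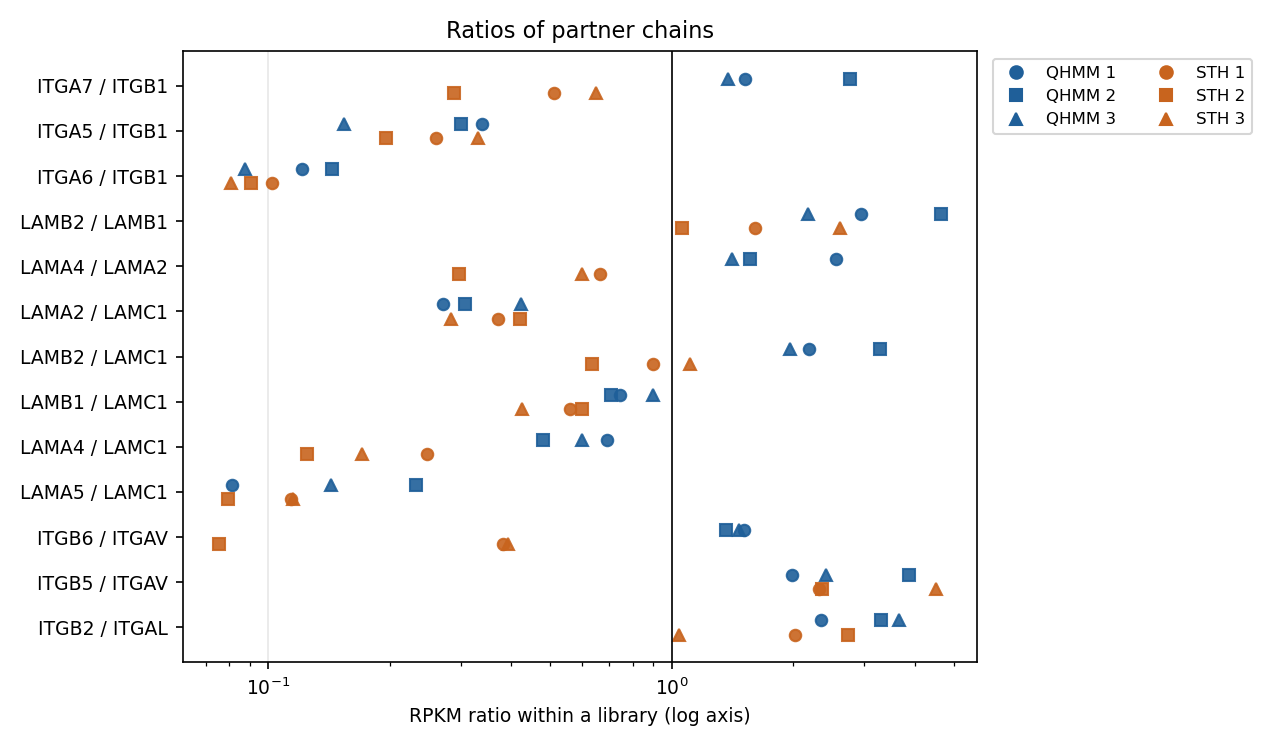
Ratios of the RPKM of 2 chains within each library (log axis), with QHMM in blue and STH in orange. The ratios of ITGA7 to ITGB1, LAMA4 to LAMA2, LAMB2, LAMB1 and LAMA4 to LAMC1 and ITGB6 to ITGAV lie lower in all STH libraries. Those of ITGA5 to ITGB1, LAMB2 to LAMB1 and LAMA2 to LAMC1 overlap.

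Receptor chains gave ratios of the same kind, again chosen after the values were seen and given without a test. ITGA7 was 1.52, 2.76 and 1.38 times ITGB1 in QHMM and 0.511, 0.288 and 0.648 times in STH, so ITGA7 exceeded its partner chain in every QHMM library and in no STH library. ITGB6 was 1.51, 1.36 and 1.47 times ITGAV in QHMM and 0.382, 0.0755 and 0.392 times in STH. The other ITGAV partner drawn, ITGB5, was 1.99, 3.87 and 2.41 times ITGAV in QHMM and 2.32, 2.36 and 4.53 times in STH, and overlapped.

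LAMA3 and LAMB3, laminin chains best known from epithelia, were scarce. LAMA3 had 102.9, 88.82 and 102.4 normalized counts in QHMM and 84.82, 33.86 and 37.66 in STH. Its breeds did not overlap, with STH replicate 1 near the QHMM range, and the log2 fold change was -0.90 (SE 0.359, edgeR FDR 0.203). Without STH replicate 1 it was -1.47 and was called (edgeR FDR 0.0321). LAMB3 had 33.44, 23.61 and 39.98 in QHMM and 15.06, 15.39 and 19.37 in STH, again without overlap (log2 fold change -0.97, SE 0.382, edgeR FDR 0.199). Of the epithelial markers given above for ITGB6, the sum was carried by KRT8, named after its values were seen, with means of 185.4 normalized counts in QHMM and 175.0 in STH. CDH1 fell from 45.33 to 10.13, while KRT18 had means of 11.83 in QHMM and 14.91 in STH. Their part in the LAMA3 and LAMB3 values was not tested.

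The integrins of leukocytes, ITGAE, ITGAL, ITGAM, ITGAX, ITGB2 and ITGB7, were low and gave 0 calls in edgeR. Of these genes 3 had an unadjusted p-value below 0.05. Among all tested genes 3.45% were called and 19.2% had such a p-value. ITGAE, the alpha chain of T cells lodged in epithelia, had 54.88, 55.09 and 69.23 normalized counts in QHMM and 21.40, 36.94 and 22.59 in STH, without overlap (log2 fold change -1.15, SE 0.335, edgeR FDR 0.0903). Its beta chain ITGB7 had 110.6, 106.8 and 62.41 in QHMM and 71.34, 41.05 and 38.73 in STH, where QHMM replicate 3 fell within the STH range (log2 fold change -0.88, edgeR FDR 0.191). ITGB2, the common leukocyte beta chain, had 245.2, 269.8 and 127.7 in QHMM and 132.4, 153.9 and 95.76 in STH, where the same library overlapped (log2 fold change -0.75, edgeR FDR 0.226).

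The alpha chains that pair with ITGB2 were not called. ITGAL, of lymphocytes, had a log2 fold change of -0.0505 (edgeR FDR 0.960), ITGAM, of myeloid cells, one of 0.57 (edgeR FDR 0.434), and ITGAX one of -0.18 (edgeR FDR 0.878), and the breeds overlapped in all 3 genes. Of 10 leukocyte and macrophage markers 9 were tested, 7 had a log2 fold change below 0 and 0 were called (edgeR, 1 with an unadjusted p-value below 0.05). Their summed level was 1498 to 1943 normalized counts in QHMM and 1063 to 1748 in STH. Their part in the ITGAE, ITGB7 and ITGB2 values was not tested.

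Of the remaining alpha chains, the collagen receptors ITGA1, ITGA10 and ITGA11 overlapped between breeds, with log2 fold changes of 0.46, 0.71 and -0.61 and FDR values of 0.563, 0.567 and 0.406. ITGA10 had only 3 to 19 reads per library. ITGA9, a receptor chain for tenascin and other matrix proteins, had 142.3, 104.6 and 78.98 normalized counts in QHMM and 66.59, 57.47 and 65.63 in STH, where all STH libraries lay below the lowest QHMM library (log2 fold change -0.78, SE 0.285, edgeR FDR 0.166). ITGA4 (-0.32, edgeR FDR 0.769), ITGAV (-0.12, edgeR FDR 0.880) and the platelet chain ITGA2B (0.0836, edgeR FDR 0.919) overlapped.

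ITGA8, the receptor chain for nephronectin, had 60.88, 14.62 and 30.23 normalized counts in QHMM and 17.44, 19.50 and 17.21 in STH. The QHMM libraries spread on both sides of the STH libraries, and the difference did not pass (log2 fold change -0.98, edgeR FDR 0.314). Without QHMM replicate 1, the highest library, it was -0.34. ITGB3, which joins ITGAV or ITGA2B, had 17.99 to 41.16 in QHMM and 8.61 to 30.12 in STH (log2 fold change -0.90, edgeR FDR 0.387). ITGBL1 had 48.88, 42.72 and 129.7 in QHMM and 57.07, 19.50 and 39.81 in STH, where QHMM replicate 3 stood apart and the breeds overlapped (log2 fold change -0.91, edgeR FDR 0.346). Without that library it was -0.23.

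Inside the cell, integrin beta chains are tied to actin through talin, kindlin, the ILK, PINCH and parvin complex, and tensins and filamins. Of 36 listed genes of such focal adhesions, 33 were in the table and tested, and 3 were called, 1 lower and 2 higher in STH, against 1.83% and 1.62% of all tested genes. The median log2 fold change of the list was 0.05, and 16 were below 0. Without QHMM replicate 2 and STH replicate 3, edgeR called 0 of them (7 with an unadjusted p-value below 0.05). ITGB1BP2, or melusin, a muscle protein that binds the tail of ITGB1, had 1058, 1209 and 1155 normalized counts in QHMM and 547.0, 255.5 and 276.5 in STH. No STH library reached the QHMM range, and ITGB1BP2 fell by 1.66 on the log2 scale (SE 0.298, edgeR FDR 0.0186).

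TNS3, a tensin that binds integrin tails, had 134.6, 161.9 and 219.4 normalized counts in QHMM and 523.2, 1102 and 387.3 in STH, and rose by 1.96 on the log2 scale (SE 0.376, edgeR FDR 0.0225). FLNC, the muscle filamin, had 63060, 64650 and 34360 in QHMM and 169200, 101400 and 344300 in STH, and rose by 1.92 (SE 0.449, edgeR FDR 0.0457). In both genes every STH library was above every QHMM library, and the highest STH library was STH replicate 2 for TNS3 and STH replicate 3 for FLNC. The 4 next genes by p-value did not pass: FBLIM1 (log2 fold change -0.92, edgeR FDR 0.0791), LIMS2 (0.88, FDR 0.129), TNS1 (0.66, FDR 0.169) and LIMS1 (0.67, FDR 0.237).

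Calls on these partner genes moved with single libraries: edgeR called 1 without QHMM replicate 1 and 0 without QHMM replicate 2 or without QHMM replicate 3. ITGB1BP2 was called in 4 of the 6 fits that left out 1 library and FLNC in 2 of 6. TNS3 was called in 3 of 6.

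In the matrix, laminin is joined to the collagen IV network by nidogens and perlecan. Of 22 listed basement membrane and matrix genes 21 were in the table and 19 were tested, 16 had a log2 fold change below 0, the median was -0.33, and 2 were called, both lower in STH (1.83% of all tested genes). Without QHMM replicate 2 and STH replicate 3, edgeR called 0 of them (5 with an unadjusted p-value below 0.05). With 1 library left out, COL15A1 lost its call when this was QHMM replicate 1, QHMM replicate 3 or STH replicate 2, and NPNT lost it when this was QHMM replicate 1, QHMM replicate 3 or STH replicate 3. COL15A1, a collagen that ties the basement membrane to the fibrils around it, had 3516, 2256 and 2704 normalized counts in QHMM and 1296, 963.6 and 1281 in STH. The breeds were well apart, and COL15A1 fell by 1.26 on the log2 scale (SE 0.25, edgeR FDR 0.0253). NPNT, nephronectin, a basement membrane ligand of the ITGA8 receptor, had 252.1, 101.2 and 197.0 in QHMM and 54.70, 13.34 and 36.58 in STH, and fell by 2.38 (SE 0.474, edgeR FDR 0.0257). NPNT had its lowest library of each breed in replicate 2, as did ITGB6, LAMA4, COL15A1 and TNC, so this was not particular to NPNT and ITGB6.

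The next 4 matrix genes by p-value did not pass. SPARC, a collagen-binding glycoprotein, had a log2 fold change of -1.11 (edgeR FDR 0.0528) and TNC, tenascin C, one of -1.42 (FDR 0.112). NID2, nidogen 2, had one of -0.74 (FDR 0.132) and THBS1, thrombospondin 1, one of 1.92 (FDR 0.133). In the 15 alternatives that did not leave out a single library, SPARC was called lower in 6, TNC lower in 3, NID2 in 0 and THBS1 in 1. THBS1 had 2752, 857.8 and 305.2 normalized counts in QHMM and 2792, 5228 and 6774 in STH. QHMM replicate 1 lay just below the lowest STH library, and without it the log2 fold change of THBS1 was 3.06 and the gene was called higher in STH, as it was without a filter on low counts. Its lowest value with 1 library left out was 1.45. NID1, COL4A1 and COL4A2, named after their values were seen, lay between -0.21 and 0.06 and overlapped between the breeds. The perlecan gene HSPG2 had 4031, 3156 and 3111 normalized counts in QHMM and 2927, 2140 and 2800 in STH. Its breeds did not overlap, and it did not pass (log2 fold change -0.39, edgeR FDR 0.408). The dystroglycan gene DAG1, the other laminin receptor of the fibre, had 4571, 4968 and 4193 normalized counts in QHMM and 3450, 1761 and 3785 in STH, did not overlap, and did not pass (log2 fold change -0.61, edgeR FDR 0.294). SPP1, osteopontin, a ligand of ITGAV receptors, had 8.57, 0 and 0 normalized counts in QHMM and 6.34, 411.5 and 301.3 in STH and was not tested because too few libraries held enough reads. HSPG2, DAG1 and SPP1 were also named after their values were seen, and VTN, vitronectin, was listed at 0.

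**Figure D5:**
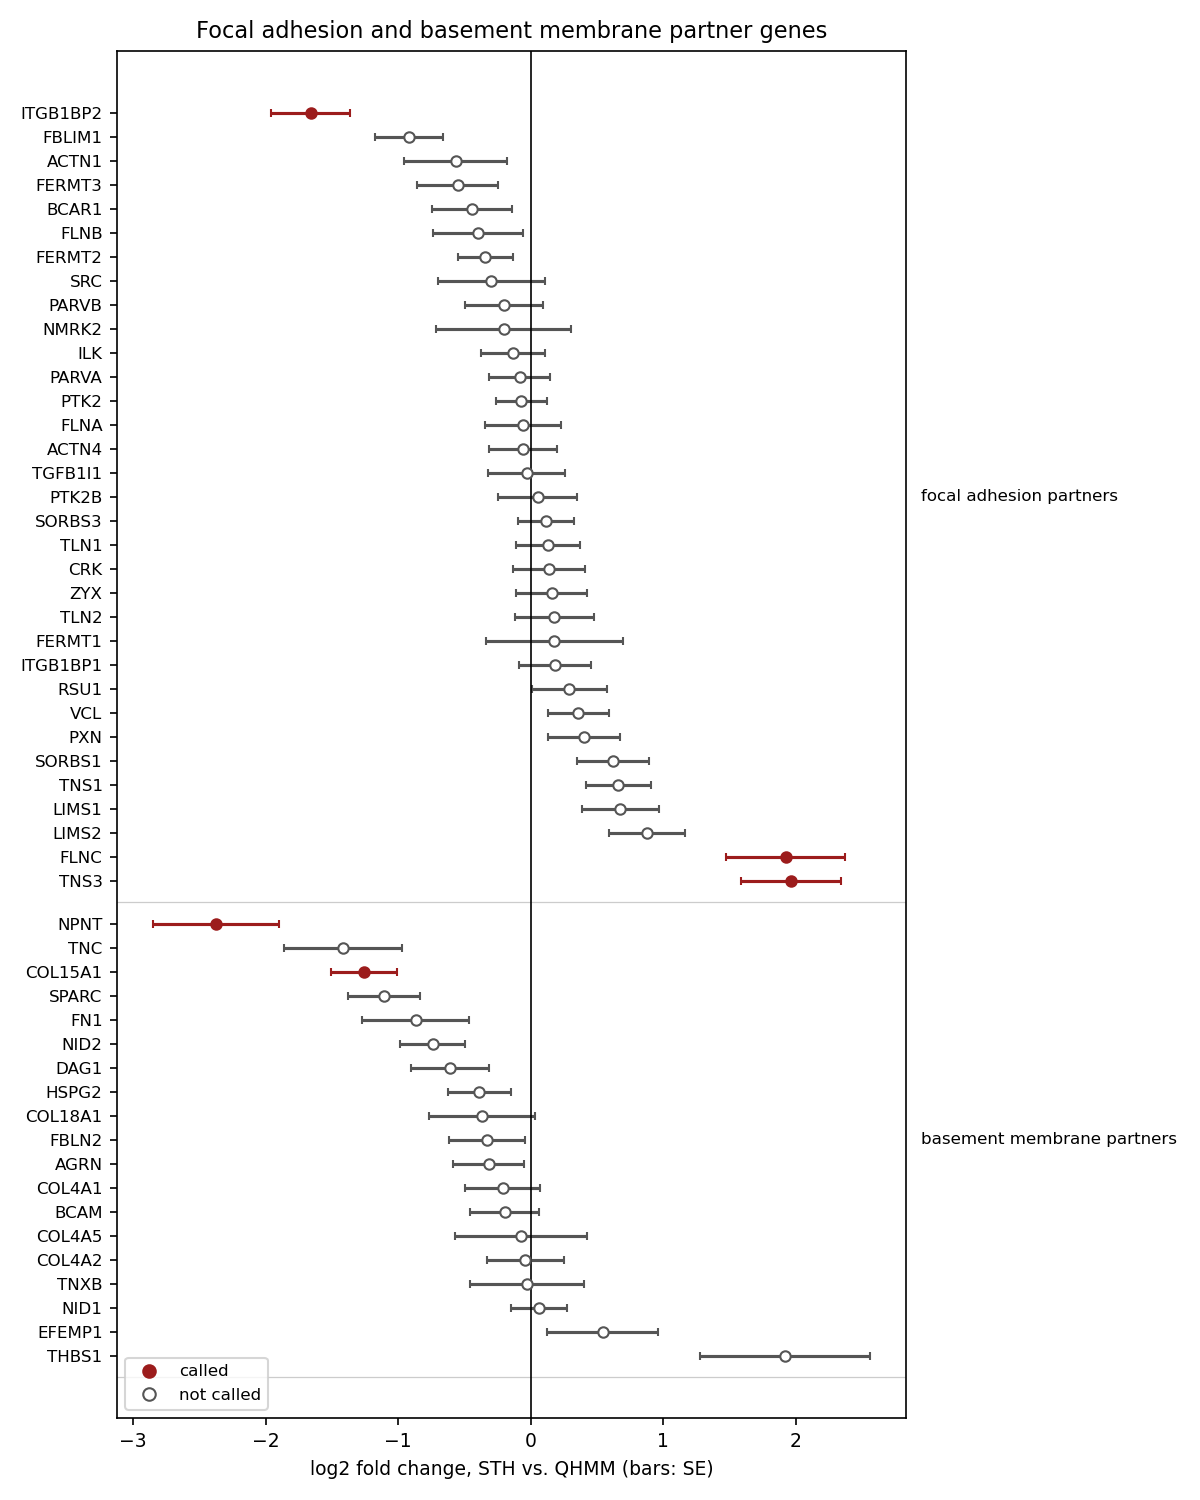
The log2 fold change in STH vs. QHMM, with its standard error (bars), of 33 focal adhesion genes and 19 basement membrane and matrix genes that were tested. Filled points mark the 5 called genes, ITGB1BP2, COL15A1 and NPNT below 0 and FLNC and TNS3 above 0.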

How the data were processed

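Poly(A) RNA of the longissimus muscle of 3 QHMM and 3 STH animals was sequenced on an Ion Proton. The authors filtered the reads, mapped them to the sheep genome Oar 3.1, and deposited the unique mapped reads per gene as counts without normalization, beside RPKM values scaled by gene length and library total. The aligner, the annotation release, the counter and its use of strand are not given in the sources used here. In the RPKM file, 25 names turned into dates were left out.

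Counts were tested in R 4.3.3 with edgeR 4.0.16 (TMM, filterByExpr, glmQLFit, glmQLFTest, breed as the only term, Benjamini-Hochberg adjustment over 12506 genes) at the thresholds of the study, an FDR below 0.05 and a fold change above 1.5. EBSeq, which the study used, was not installed. The SE was obtained from the log2 fold change and its F statistic, and intervals are 95% intervals from the same test. Totals of 10982191 to 14334544 reads limit the precision of genes with few reads, such as ITGB6 in STH. Replicates are separate animals. Of the 38 members, 37 are described by name, and 1 that was not tested is not reported here. Of the partner genes, those called and the 4 next by p-value are named, and some others after their values were seen. Of the marker lists, the called genes, some uncalled genes and the summed levels of some lists are given. The members and lists were chosen with earlier results of these data known. The smooth muscle and pericyte list had 0 of 8 called genes (2 at p below 0.05) and the Schwann cell list 0 of 4 (0 at p below 0.05). The satellite cell list had 1 of 3, CDH15, higher in STH. The other satellite cell markers tested did not rise: PAX7 had a log2 fold change of -1.43 (edgeR FDR 0.294) and MYF5 one of -0.008 (FDR 0.988). No platelet or blood marker was tested. Gene overlaps came from RefSeq annotation of the assembly ARS-UI_Ramb_v3.0, in which 37 of the 38 symbols, all but LAMB2, were found.

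Alternatives were DESeq2 1.42.0, TREAT, robust dispersions, upper-quartile normalization, a replicate block, no filter, a minimum of 10 counts per library, no minimum fold change, limma-trend (limma 3.58.1) with pseudocounts of 1 and 0.1 on the log2 RPKM scale (genes reaching 1 RPKM in 3 libraries, or every gene above 0), leaving out the 20 most abundant genes, and leaving out each library. Added after the data were seen were limma-trend on RPKM divided by the TMM factor, leaving out QHMM replicate 2 and STH replicate 3 together, and subtracting METTL7B reads from ITGA7. The methods were tested on simulated counts.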

Additional observations from a re-analysis of the deposited data

How the results depend on the processing

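ITGA7 stayed called in 14 of 15 alternatives that did not leave out a single library, and ITGB6 in 11 of 15. ITGB6 was lost with TREAT (FDR 0.0686), on log2(RPKM + 0.1) (FDR 0.0568), on log2(RPKM + 1) of every gene above 0 (FDR 0.143) and without QHMM replicate 2 and STH replicate 3 (FDR 0.118). Beside 2 members called, DESeq2 and the test without a filter called 4 each, TREAT, log2(RPKM + 0.1) and log2(RPKM + 1) of every gene above 0 called 1 each, the comparison without QHMM replicate 2 and STH replicate 3 called 0, and those without 1 library called 1 to 4. Beside 3 focal adhesion genes, TREAT, log2(RPKM + 1) of every gene above 0 and the comparison without both libraries called 0, and those without 1 library 0 to 3. Beside 2 basement membrane genes, DESeq2 called 4, the test without a filter 6, TREAT, the 3 RPKM settings without a TMM factor and the comparison without both libraries 0, and those without 1 library 0 to 3. Leaving out 1 library leaves a breed with 2 animals, and all genes then gave 131 to 535 calls beside 432. The causes of the other changes were not tested.

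Replicate numbers did not pair the animals: deviations of same-numbered libraries from their breed means correlated at 0.226, -0.038 and -0.13. With the replicate number as a block, 3 members were called (LAMA4 was added), 2 focal adhesion genes and 3 basement membrane genes, and all genes gave 457 calls.

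Called genes were higher in STH in 47.0% of cases, against 61.3%, 61.9% and 69.2% on log2(RPKM + 1), log2(RPKM + 0.1) and log2(RPKM + 1) of every gene above 0, where the median of all genes moved to 0.117, 0.141 and 0.0439. All genes gave 973 calls with DESeq2, 806 without a filter, 105 with TREAT, 78 on log2(RPKM + 1) of every gene above 0 and 11 without both libraries.

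The sign of 10 members near 0, none of them called, was not fixed. ITGA5 was -0.0061 with DESeq2, -0.0231 with a minimum of 10 counts, -0.00453 without a filter, -0.00361 with upper-quartile normalization, -0.0125 without the 20 most abundant genes and -0.154 without both libraries. In the same way ITGB1 was -0.0159 with a minimum of 10 counts, -0.0032 with upper-quartile normalization, -0.00603 without the 20 genes and -0.0599 without both libraries. ITGB4 was -0.0114 with a minimum of 10 counts, -0.000414 without the 20 genes and -0.333 without both libraries, and ITGB5 was -0.0971 and ITGAX 0.367 without both. On log2(RPKM + 1), with or without a filter, ITGAL was 0.106, ITGAV 0.0165, LAMA5 0.112 and LAMB1 0.031, and on log2(RPKM + 0.1) they were 0.166, 0.0226, 0.142 and 0.0308. With the TMM factor ITGAL was 0.0209 and LAMA5 0.0165, with the block 0.0264 and 0.0372, and LAMA5 was 0.274 without both libraries. Leaving out 1 library gave ITGA5 -0.208 to 0.382, ITGB1 -0.159 to 0.131, ITGB4 -0.159 to 0.249, ITGB5 -0.0197 to 0.147, ITGA2B -0.137 to 0.202, ITGAL -0.385 to 0.269, ITGAV -0.388 to 0.0915, ITGAX -0.664 to 0.138, LAMA5 -0.251 to 0.339 and LAMB1 -0.211 to 0.0822.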
